A study of Mus musculus with 30 samples.

Results

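Insulin-like growth factor (IGF) signalling genes were followed in the extensor digitorum longus (EDL), a fast hind limb muscle. The members are the 9 genes IGF1, IGF2, IGF1R, IGF2R, IGFBP3, IGFBP4, IGFBP5, IGFBP6 and IGFBP7, chosen by symbol, out of 21073 genes in the expression table. All mice were female SJL/J mice. Their age is not given in the sources used here. The Ctrl mice were not immunized. The OVA mice received ovalbumin in complete Freund's adjuvant (CFA). The EAE mice received a proteolipid protein (PLP) peptide in CFA, which induces experimental autoimmune encephalomyelitis, a relapsing-remitting paralysis used as a model of multiple sclerosis. OVA and EAE mice thus shared the adjuvant, and the Ctrl mice lacked it. Pertussis toxin was left out of the induction, which gives a mild form of the disease. EDL was sampled on day 14, at the peak of EAE, and on day 40, in remission after a relapse, with 5 libraries in each of the 6 groups and 30 in all. The labels number the libraries of a group but do not state that each is a separate mouse, so the p-values measure the spread between these libraries, which are called mice below. Muscle was sequenced whole, so fewer cells of a type and less RNA per cell cannot be told apart.

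IGF1 and IGF2 are secreted growth factors. Both bind IGF1R, a receptor tyrosine kinase that acts through insulin receptor substrates, PI3K, AKT and mTOR to favour protein synthesis and to keep FOXO factors, which drive atrophy genes, out of the nucleus. IGF2R, the cation-independent mannose 6-phosphate receptor, carries IGF2 and lysosomal enzymes to the lysosome and does not signal growth. The IGF binding proteins (IGFBPs) hold the ligands outside the cell, prolong their half-life and limit or deliver them to the receptor. IGFBP6 prefers IGF2, and IGFBP7 binds IGFs only weakly.

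Of the 9 genes, 4 passed the test in at least 1 comparison of EAE mice with a control group, namely IGF2R, IGFBP4, IGFBP6 and IGFBP7. Their upstream sequences are shown, with IGF2R higher and IGFBP4, IGFBP6 and IGFBP7 lower in EAE mice of day 14. The windows differ in base composition, and a link between composition and direction was not tested. Each is the 250 bases before a transcription start in RefSeq on GRCm38.p6 (mm10), read 5′ to 3′ on the strand of the gene. Capitals mark matches, on either strand, to the TATA box TATAAA, the GC box GGGCGG and the CCAAT box.
IGF2R (chr17:12769707-12769956, minus strand): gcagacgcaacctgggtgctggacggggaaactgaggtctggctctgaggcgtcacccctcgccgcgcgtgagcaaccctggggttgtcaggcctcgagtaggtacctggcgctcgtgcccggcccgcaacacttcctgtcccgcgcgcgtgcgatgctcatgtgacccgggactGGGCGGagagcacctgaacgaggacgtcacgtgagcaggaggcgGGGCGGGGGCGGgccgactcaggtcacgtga
IGFBP4 (chr11:99040994-99041243, plus strand): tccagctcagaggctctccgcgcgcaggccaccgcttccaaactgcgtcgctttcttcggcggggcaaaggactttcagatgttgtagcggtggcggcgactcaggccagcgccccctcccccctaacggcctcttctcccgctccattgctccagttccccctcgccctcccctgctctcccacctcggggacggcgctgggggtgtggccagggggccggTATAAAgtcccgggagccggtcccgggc
IGFBP6 (chr15:102143936-102144185, plus strand): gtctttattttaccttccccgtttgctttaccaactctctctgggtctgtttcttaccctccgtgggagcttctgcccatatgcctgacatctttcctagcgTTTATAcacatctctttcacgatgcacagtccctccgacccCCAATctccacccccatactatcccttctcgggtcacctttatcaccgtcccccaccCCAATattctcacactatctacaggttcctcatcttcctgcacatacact
IGFBP7 (chr5:77408046-77408295, minus strand): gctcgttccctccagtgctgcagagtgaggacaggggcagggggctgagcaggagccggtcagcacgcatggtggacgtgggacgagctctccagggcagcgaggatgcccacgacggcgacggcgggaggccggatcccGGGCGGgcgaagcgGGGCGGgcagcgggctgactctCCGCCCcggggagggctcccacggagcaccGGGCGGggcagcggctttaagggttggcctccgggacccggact

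IGF2R lies at chr17:12682406-12769706, IGFBP4 at chr11:99040005-99052655, IGFBP6 at chr15:102144186-102149512 and IGFBP7 at chr5:77349240-77408045, and each window lies outside the exons of its gene. The other members are IGF1 (chr10:87858265-87937047), IGF2 (chr7:142650768-142666816), IGF1R (chr7:67952257-68233668), IGFBP3 (chr11:7206086-7215498) and IGFBP5 (chr1:72858065-72874865). The IGF2R window held 3 GC boxes and 27 CpG dinucleotides, and the IGFBP7 window 4 GC boxes and 26 CpG. The IGFBP4 window held 1 TATA box, 22 CpG and no GC box. It lies inside the annotated gene, after an earlier start, without touching an exon of it. The IGFBP6 window was the poorest in CpG, with 7, and held 2 CCAAT boxes and the TATA letters on the opposite strand. Among 32851 promoter windows of the same length, 32.7% held the GC box, 12.4% the TATA letters and 33.8% CCAAT. The FOXO letters GTAAACA, found in 3.17% of windows, and the muscle E-box CAGCTG, found in 13%, were in none of these 4. These are matches of letters and were not tested as binding sites.

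The libraries held between 18.1M and 31.6M assigned reads (median 21.6M), estimated from the value of a single read in each library. All 9 genes had reads in every mouse, from an estimated 344 reads for IGFBP3 to 30317 for IGFBP5. The defining myofibre markers were all expressed, as the labelled tissue requires. Mice differed in how their values leaned with the length of a gene. This length trend, in log2 units per doubling of exon length relative to the mean of all mice, ran from -0.353 to 0.271, and 4 mice of day 14 had the lowest values (Ctrl 1, OVA 1, OVA 5 and EAE 1). It bears on IGF2R, IGF1R and IGF1, whose exons sum to 8887, 11409 and 8633 bases, and on IGFBP6 and IGFBP7, with 1112 and 1209. Values after removing this trend, and without those 4 mice, are given beside the EAE comparisons of these genes on day 14 and where they change the call of a member. For the gene lists they are given in part.

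On day 14, 3 of the 9 genes were called between EAE and Ctrl mice, with 1 higher (IGF2R) and 2 lower (IGFBP4 and IGFBP6). A call needed an adjusted p below 0.05 in limma and a fold change above 1.5. Among all 8771 genes tested, 26.4% were called, 14.6% higher and 11.8% lower. With quantile normalization the counts over all genes turned from 1282 higher and 1036 lower to 1014 and 1181. The median log2 fold change was -0.33 over the 9 genes and 0.11 over all genes. Without the fold threshold 7 of 9 genes passed, against 47.8% of all genes. Both genes that fell had every EAE mouse below every Ctrl mouse, which 11% of all genes showed. Against OVA mice 4 of 9 were called, with IGF2R higher and IGFBP4, IGFBP6 and IGFBP7 lower. The background there was 20.3% of 8674 genes, 11% higher and 9.28% lower (957 and 805 genes, and 757 and 963 with quantile normalization), and without the fold threshold 5 of 9 passed against 39.1%. In ranges that did not overlap, 1 gene was above the OVA mice (18% of all genes) and 2 were below them (8.2%). Both comparisons share the EAE mice.

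**Figure D1:**
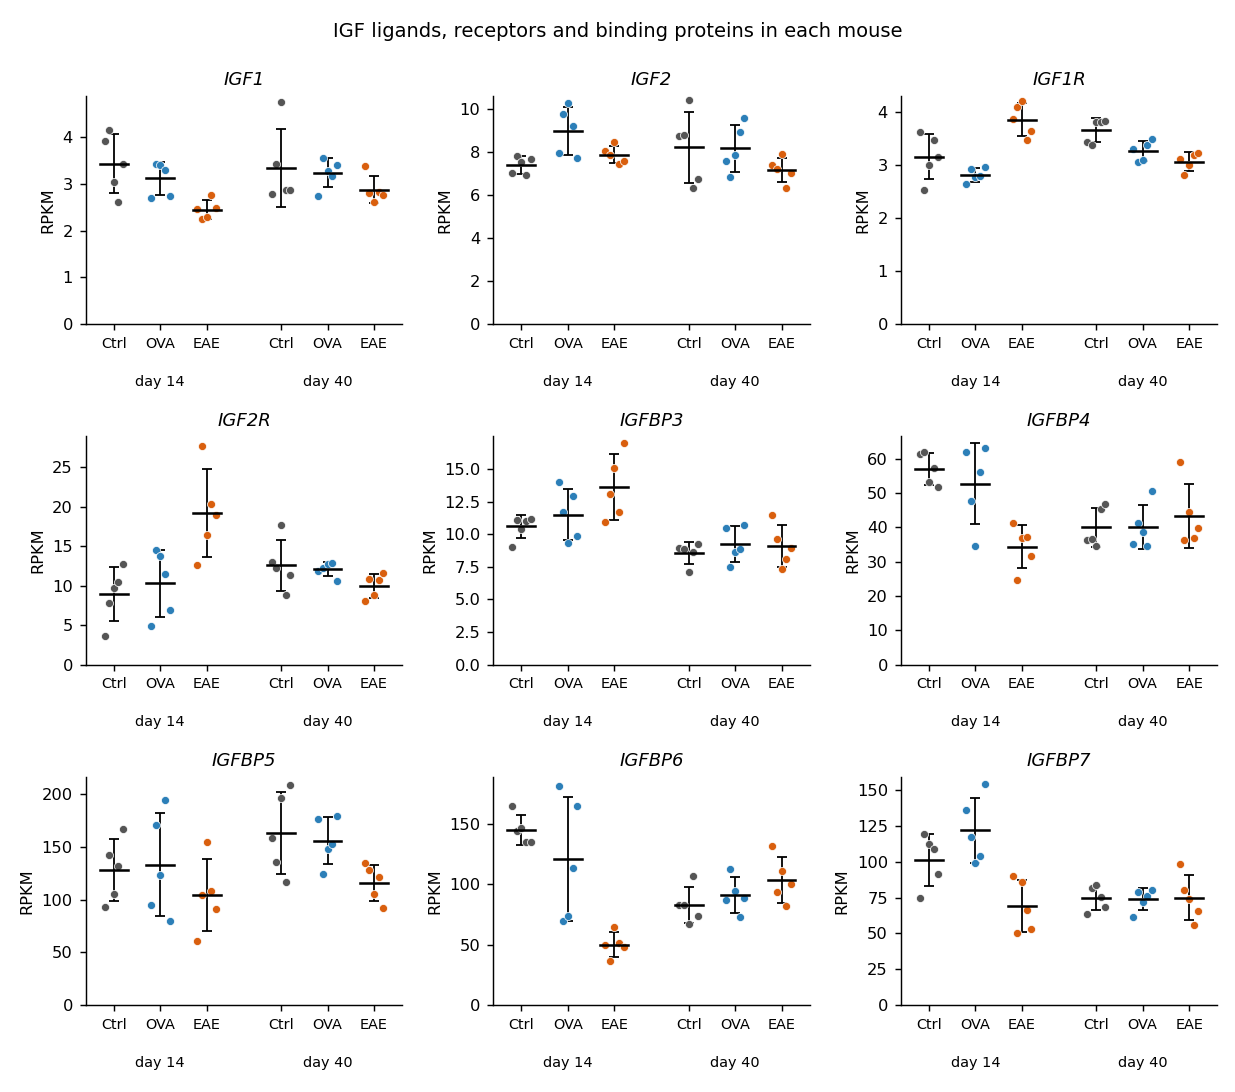
RPKM of each gene in each mouse, with day 14 on the left and day 40 on the right of every panel. Points are mice, horizontal lines are group means and bars are SD (n = 5), and every axis starts at 0. IGF2R is highest and IGFBP6 lowest in EAE mice of day 14, where IGFBP6 lies between 36.2 and 64.7 RPKM, below every other mouse.

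The ligands were expressed at low levels and neither was called in any within-day comparison. IGF1, the growth factor that mediates much of the action of growth hormone, read 3.91, 4.14, 3.04, 2.60 and 3.41 RPKM in Ctrl mice of day 14. It read 2.70, 3.42, 3.39, 3.28 and 2.74 RPKM in OVA mice and 2.45, 2.25, 2.28, 2.76 and 2.49 RPKM in EAE mice. The EAE mice were the lowest group (2.44 ± 0.203 RPKM, against 3.42 ± 0.63 in Ctrl, SD, n = 5), and their highest value overlapped with both control groups. Its log2 fold change against Ctrl was -0.45 (SE 0.14, limma adjusted p = 0.0135), under the 1.5-fold threshold. After the length correction it was -0.75 (adjusted p = 0.00166), which passes both thresholds. Without the 4 mice of lowest length trend it was -0.40 (adjusted p = 0.0302). Against OVA mice it was -0.33 (adjusted p = 0.068), with -0.52 after the correction (adjusted p = 0.0198) and -0.45 without the 4 mice (adjusted p = 0.0311), both under 1.5-fold.

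IGF2, the fetal growth factor that adult muscle keeps at a low level, did not follow IGF1. On day 14 its level was 7.40 ± 0.408 RPKM in Ctrl, 8.99 ± 1.13 in OVA and 7.89 ± 0.413 in EAE mice. The EAE mice ranged from 7.45 to 8.49 RPKM and overlapped with both control groups. In log2, IGF2 differed by 0.09 from Ctrl (95% interval -0.11 to 0.29) and by -0.18 from OVA (-0.38 to 0.02). The estimate against Ctrl took the other sign after the length correction (-0.07). Against OVA it was -0.27 after the correction (limma adjusted p = 0.0173) and -0.31 without the 4 mice of lowest trend (adjusted p = 0.0104), both under 1.5-fold. Exons of IGF2 overlap those of Gm49394 on its own strand and of the antisense gene Igf2os. The library kit keeps strand, but whether the counting used it is not given in the sources used here, so these reads cannot be separated.

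The receptors differed in size of change. IGF1R, the signalling receptor, read 3.62, 2.54, 3.01, 3.47 and 3.15 RPKM in Ctrl mice of day 14. OVA mice read 2.64, 2.93, 2.78, 2.80 and 2.97 RPKM, and EAE mice 3.87, 4.1, 4.22, 3.48 and 3.65 RPKM. Every EAE mouse was above every OVA mouse, whereas EAE and Ctrl mice overlapped. As a log2 fold change this was 0.44 against OVA (SE 0.11, limma adjusted p = 0.00638) and 0.29 against Ctrl (adjusted p = 0.0442), and both were under 1.5-fold. With its long exons this gene depended on the length trend. After the correction its estimate was 0.19 against OVA (adjusted p = 0.391) and -0.09 against Ctrl (adjusted p = 0.697), the opposite sign. Without the 4 mice of lowest trend the values were 0.43 and 0.34 (adjusted p = 0.0172 and 0.0289).

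IGF2R was 2.24-fold higher in EAE than in Ctrl mice on day 14. Ctrl mice read 3.64, 7.82, 9.77, 10.5 and 12.7 RPKM and OVA mice 4.89, 14.5, 13.8, 11.5 and 6.87 RPKM. EAE mice read 12.6, 27.7, 16.4, 20.4 and 18.9 RPKM. In this group 4 mice lay above every control mouse of day 14 and the lowest, EAE 1, fell inside both control ranges. Its log2 fold change was 1.17 against Ctrl (SE 0.34, limma adjusted p = 0.0103) and 0.96 against OVA (SE 0.34, adjusted p = 0.034). The 4 mice of lowest length trend were the lowest in IGF2R of their groups. After the length correction the values were 0.86 (adjusted p = 0.00465) and 0.77 (adjusted p = 0.0105). Without those 4 mice they were 1.02 (adjusted p = 0.000461) and 0.63 (adjusted p = 0.0153). That cut left out EAE 1, at a trend of -0.147, and kept Ctrl 2, at -0.143 and 7.82 RPKM, so these values depend on where it was placed. The call against OVA mice was lost when OVA 1, OVA 5, EAE 2, EAE 4 or EAE 5 was left out, with log2 fold changes of 0.72, 0.84, 0.82, 0.93 and 0.95, and without a filter on low values (0.96, adjusted p = 0.0553). The call against Ctrl mice held in each of its 10 fits without 1 mouse (0.88 to 1.32).

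**Figure D2:**
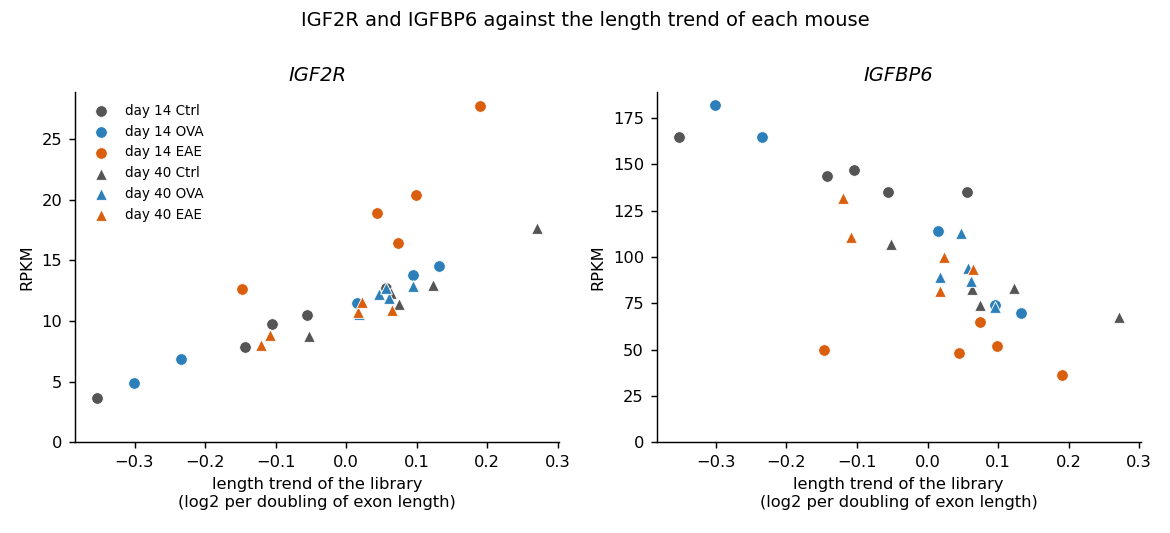
IGF2R (left) and IGFBP6 (right) RPKM of each mouse against the length trend of its library, in log2 per doubling of exon length. Circles are day 14, triangles are day 40, and colours are the treatment groups. EAE mice of day 14 lie above the other mice of like trend for IGF2R and below them for IGFBP6. Mouse EAE 1, at a trend of -0.147, had 12.6 RPKM of IGF2R, and Ctrl 2, at -0.143, had 7.82.

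Of the binding proteins, IGFBP4, IGFBP5, IGFBP6 and IGFBP7 had higher RPKM, a value per length, than the ligands and receptors in every group mean, whereas IGFBP3 was of the order of IGF2R. Every binding protein called in EAE mice of day 14 was lower. IGFBP5, IGFBP6 and IGFBP7 exceeded 100 RPKM in Ctrl mice of day 14, with group means of 128, 145 and 101. The RPKM summed over the 5 genes was 442 ± 28.6 in Ctrl, 440 ± 62.7 in OVA and 271 ± 51.5 in EAE mice of day 14. The EAE mice ranged from 228 to 358 and overlapped with OVA mice, which began at 340, but not with Ctrl mice, which began at 403. IGFBP6 made up 33.1% ± 4.78 of the sum in Ctrl, 26.9% ± 8.86 in OVA and 18.5% ± 1.63 in EAE mice. The OVA mice ranged from 16.7% to 37.3% and overlapped with the EAE mice (15.9% to 19.9%). The share of IGFBP3 was 2.39% ± 0.097 in Ctrl, 2.63% ± 0.31 in OVA and 5.12% ± 1.26 in EAE mice. On day 40 the sums were 369 ± 27.3, 370 ± 23.9 and 347 ± 53.3. The IGFBP6 shares on day 40 were 22.7% ± 5.25 in Ctrl, 24.7% ± 4.02 in OVA and 29.8% ± 2.78 in EAE mice. Sums and shares were taken without the length correction, over genes whose exons sum to between 1112 (IGFBP6) and 6006 bases (IGFBP5).

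**Figure D3:**
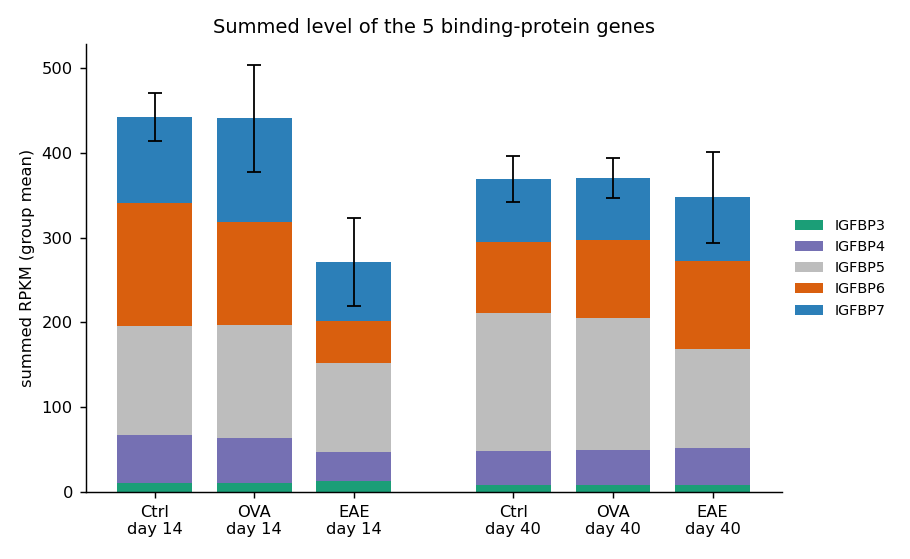
Group means of the RPKM summed over IGFBP3 to IGFBP7, with 1 bar per group. Colours are the genes, black bars are the SD of the sum (n = 5), and the axis starts at 0. The EAE bar of day 14 is the shortest, at 271, and its IGFBP6 part is 50.1 RPKM against 145 in Ctrl mice.

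IGFBP6, the binding protein that prefers IGF2, had the largest change of the 9 genes. Ctrl mice of day 14 read 165, 144, 147, 135 and 135 RPKM, and OVA mice 182, 69.6, 73.9, 114 and 165 RPKM. EAE mice read 49.9, 36.2, 64.7, 51.8 and 48.0 RPKM. All 5 EAE mice were below every control mouse of day 14, and the OVA mice were widely spread, with OVA 2 and OVA 3 close to the EAE range. IGFBP6 had a log2 fold change of -1.55 against Ctrl (SE 0.24, limma adjusted p = 0.000101), a 2.93-fold difference. Against OVA it was -1.19 (SE 0.24, adjusted p = 0.0011). It remained called after the length correction (-1.33 and -1.05) and without the 4 mice of lowest trend (-1.51 and -0.77).

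IGFBP4, a soluble binding protein that holds IGF1 back from its receptor until it is cleaved, fell as well. Ctrl mice of day 14 read 61.4, 62.1, 53.2, 57.3 and 51.7 RPKM, and OVA mice 62.0, 47.7, 34.7, 56.2 and 63.2 RPKM. EAE mice read 41.4, 24.8, 36.9, 37.1 and 31.7 RPKM. The EAE mice were below every Ctrl mouse, and mouse OVA 3 lay inside their range. The log2 fold change was -0.75 against Ctrl (SE 0.16, limma adjusted p = 0.00168) and -0.60 against OVA (SE 0.16, adjusted p = 0.00856). Against OVA the fold was 1.52, close to the threshold of 1.5. That call was lost without OVA 1, OVA 4, OVA 5, EAE 2 or EAE 5 (log2 fold changes -0.54, -0.57, -0.53, -0.49 and -0.58) and without the 4 mice of lowest length trend (-0.49, adjusted p = 0.0334).

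IGFBP7, a matrix protein of vessel walls and connective tissue that binds IGFs weakly, was lower in EAE than in OVA mice. OVA mice of day 14 read 136, 117, 99.2, 104 and 154 RPKM, and Ctrl mice 74.4, 119, 112, 109 and 91.6 RPKM. EAE mice read 89.9, 50.0, 85.7, 66.4 and 53.1 RPKM. All EAE mice were below all OVA mice, and 2 of them were above mouse Ctrl 1. The log2 fold change was -0.84 against OVA (SE 0.18, limma adjusted p = 0.00214). This was -0.72 after the length correction (adjusted p = 0.00428) and -0.77 without the 4 mice of lowest trend (adjusted p = 0.00304). Against Ctrl it was -0.57 (adjusted p = 0.0184), a fold of 1.49 that missed the threshold. It passed without Ctrl 1, Ctrl 5, EAE 1 or EAE 3 (-0.68, -0.60, -0.68 and -0.66), with median-of-ratios scaling (-0.61), with quantile normalization (-0.67) and without the 4 mice of lowest trend (-0.78). After the length correction it was -0.36 (adjusted p = 0.0985). An exon of IGFBP7 overlaps Polr2b on the other strand.

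IGFBP3, the main carrier of IGFs in blood, and IGFBP5, the major binding protein made by muscle cells, were not called. IGFBP3 was 13.6 ± 2.52 RPKM in EAE, 10.6 ± 0.9 in Ctrl and 11.5 ± 1.97 in OVA mice of day 14. Its log2 fold change against Ctrl was 0.34 (SE 0.14, limma adjusted p = 0.0484), and against OVA it was 0.23 (adjusted p = 0.199). IGFBP5 was 104 ± 34.0 RPKM in EAE, 128 ± 29.4 in Ctrl and 133 ± 49.0 in OVA mice, and all 3 groups overlapped. Its log2 fold change was -0.33 against Ctrl (95% interval -0.89 to 0.23) and -0.34 against OVA (-0.89 to 0.22). The length correction made the value against Ctrl -0.52 (limma adjusted p = 0.0331), under 1.5-fold, and without EAE 1 it was -0.16.

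**Figure D4:**
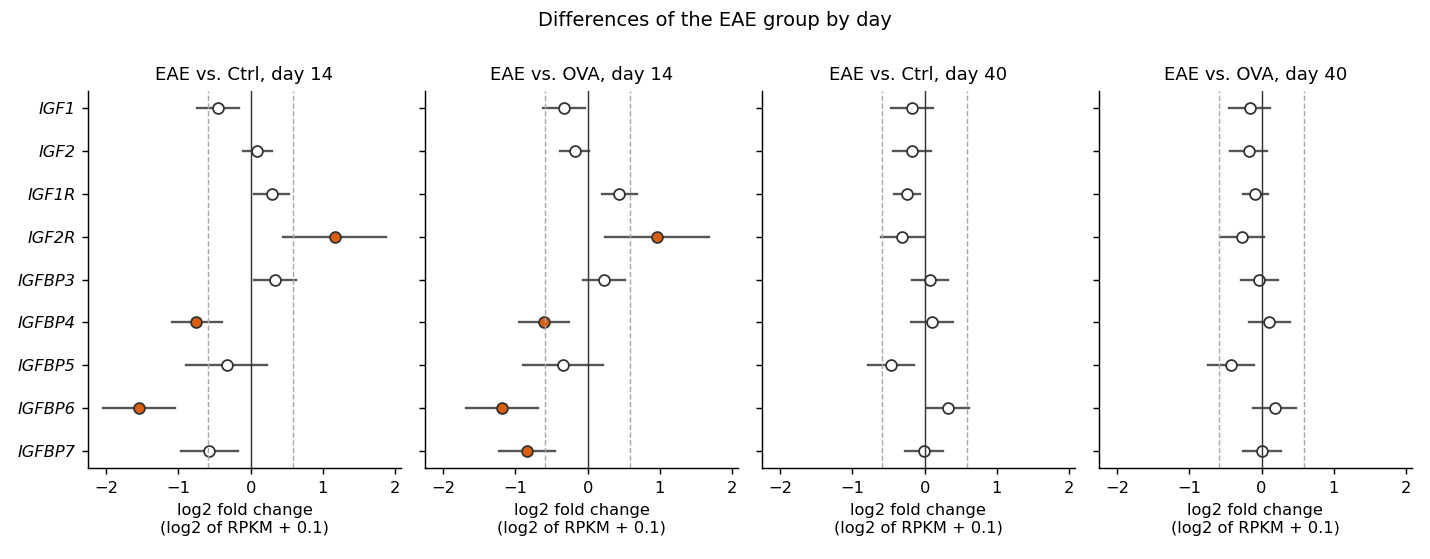
Log2 fold change of the EAE group against Ctrl and against OVA mice on each day, on the log2(RPKM + 0.1) scale. Points are estimates, lines are 95% intervals, filled points were called, and dashed lines mark 1.5-fold. On day 14 IGF2R lies to the right (1.17 and 0.96) and IGFBP6 to the left (-1.55 and -1.19), and on day 40 no point is filled.

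The ovalbumin control asked what adjuvant and a foreign antigen do without EAE. None of the 9 genes was called between OVA and Ctrl mice on day 14, where 0.142% of 8471 genes were (12 genes, and 5 to 7 without Ctrl 1, 3 or 4 or OVA 1, 2, 3 or 4), and 1 had an unadjusted p below 0.05, against 9.69% of all genes. That gene was IGF2, with a log2 fold change of 0.27 (limma adjusted p = 0.365). The other 8 estimates lay between -0.37 (IGFBP6) and 0.27 (IGFBP7). The 95% interval for IGFBP6 was -0.87 to 0.13 and for IGF2R -0.51 to 0.92, and both reach past 1.5-fold. On day 40 none of 9 was called between OVA and Ctrl, and 0% of 8706 genes were called. None of 9 had an unadjusted p below 0.05, against 3.12% of all genes.

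On day 40 none of the 9 genes was called between EAE mice and either control group. Among all genes 0.46% of 8691 were called against Ctrl and 0.209% of 8598 against OVA. These shares rest on few genes and on single mice. The 40 genes called against Ctrl were 19, 7, 202 and 21 without Ctrl 1, 3, 4 and 5, and 1 without EAE 3. The 18 called against OVA were 2 without OVA 3, 4 or 5 or EAE 2 or 3, and 3 without EAE 4 or 5. No member was called in any of these fits. At an unadjusted p below 0.05, 4 of 9 differed from Ctrl and 1 from OVA, against 27.9% and 17.4% of all genes. IGFBP5 was in both. It read 135, 128, 105, 121 and 92.3 RPKM in EAE mice, 158, 136, 196, 117 and 209 RPKM in Ctrl and 176, 124, 148, 153 and 179 RPKM in OVA mice. Its log2 fold change was -0.47 against Ctrl (limma adjusted p = 0.0797) and -0.43 against OVA (adjusted p = 0.17). The other 3 were IGF1R (-0.24, adjusted p = 0.0877), IGF2R (-0.31, adjusted p = 0.173) and IGFBP6 (0.32, adjusted p = 0.152). For IGF1R every EAE mouse (2.81 to 3.23 RPKM) was below every Ctrl mouse (3.39 to 3.83 RPKM), which 4.51% of all genes showed in that direction. These 3 had the sign opposite to day 14. After the length correction they were -0.00, -0.10 and 0.15, and IGFBP5 was -0.32 (adjusted p = 0.203).

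Whether the EAE difference depended on the day was tested by an interaction term over all 30 mice. For EAE against Ctrl 3 of 9 genes were called, against 32.7% of 9013 genes, and without the fold threshold 5 passed, against 48.6%. The log2 difference of day 40 from day 14 was -1.47 for IGF2R (SE 0.39, limma adjusted p = 0.00307), 0.85 for IGFBP4 (SE 0.22, adjusted p = 0.00271) and 1.87 for IGFBP6 (SE 0.29, adjusted p = 1.19e-05). For EAE against OVA, 4 of 9 were called, against 21.8% of 8935 genes, and 5 passed without the fold threshold, against 35.1%. The called genes were IGF2R (-1.23, adjusted p = 0.0151), IGFBP4 (0.71, adjusted p = 0.0143), IGFBP6 (1.36, adjusted p = 0.000603) and IGFBP7 (0.85, adjusted p = 0.00561). For OVA against Ctrl the interaction called none of 9 and 0% of 8848 genes, with none of the 9 at an unadjusted p below 0.05, against 9.3% of all genes. IGFBP7 against Ctrl was 0.56 (adjusted p = 0.0449), a fold of 1.48. It passed both thresholds when Ctrl 1, Ctrl 5, EAE 1 or EAE 3 of day 14, or Ctrl 2, Ctrl 3, EAE 4 or EAE 5 of day 40 was left out (0.59 to 0.67), without the 4 mice of lowest trend (0.77, adjusted p = 0.00303) and with median-of-ratios scaling (0.69, adjusted p = 0.0139). It was 0.19 after the length correction (adjusted p = 0.503). IGF1R passed without the fold threshold (-0.53 against Ctrl and -0.52 against OVA) and was 0.06 and -0.16 after the length correction. The called values kept their side of both thresholds under that correction. Both EAE interactions share the EAE mice.

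The days were also compared within each group. Different mice were taken on the days, so a rise or fall here is a difference between mice. Any difference in age or processing between the days cannot be told apart from it. In EAE mice IGF2R fell from 19.2 ± 5.6 RPKM on day 14 to 10.0 ± 1.49 on day 40 (log2 fold change -0.90, SE 0.27, limma adjusted p = 0.00822). IGFBP6 rose in EAE mice from 50.1 ± 10.2 to 104 ± 19.0 RPKM (1.05, SE 0.20, adjusted p = 0.000111). The ranges of the days did not overlap for either gene, which 21.9% of all genes showed in the lower and 10.2% in the higher direction. These were 2 of the 8 genes tested, against 21.1% of 8709 genes, since IGF1 was under the filter of 3 RPKM in both groups. Without the fold threshold 4 passed, against 49%, with IGF1R at -0.32 and IGFBP3 at -0.57 (adjusted p = 0.000853, fold 1.48). IGFBP3 passed both thresholds without EAE 1 or EAE 4 of day 14 or EAE 1 or EAE 2 of day 40 (-0.64, -0.61, -0.65 and -0.59). It also passed them after the length correction (-0.60) and without the 4 mice of lowest trend (-0.64). In Ctrl mice IGFBP6 fell from 145 ± 12.2 to 83.0 ± 15.1 RPKM (-0.82, adjusted p = 0.00637), the 1 of 9 called, against 9.37% of 8788 genes. Those 823 genes were 309 without Ctrl 1 and 1295 without Ctrl 5 of day 14, and 406 without Ctrl 3 of day 40. Without the fold threshold 3 passed, against 31.5%, with IGFBP4 at -0.52 and IGFBP7 at -0.43. After the length correction IGFBP6 was -0.49 (adjusted p = 0.0195), under 1.5-fold, and IGFBP4 was -0.64 (adjusted p = 0.0137), a call. Without Ctrl 5 of day 14, 2 genes were called, with IGF2R at 0.73 in Ctrl mice. In OVA mice IGFBP7 fell from 122 ± 22.7 to 73.7 ± 7.6 RPKM (-0.72, adjusted p = 0.00556), 1 of 9 against 3.97% of 8648 genes (2.51% without OVA 1 and 2.61% without OVA 5 of day 14). This was -0.55 after the length correction (adjusted p = 0.029) and -0.54 without the 4 mice of lowest trend (adjusted p = 0.0484), both under 1.5-fold.

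Ordered by mean level over the 6 groups, neighbouring groups overlapped in range for every gene, with 1 exception. The EAE mice of day 14 were last for IGFBP6 (50.1 RPKM) and did not overlap with the next group, Ctrl mice of day 40 (83.0 RPKM). EAE mice of day 14 were also last for IGF1, IGFBP4, IGFBP5 and IGFBP7 and first for IGF1R, IGF2R and IGFBP3.

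Across the 30 mice IGF2R and IGFBP6 varied in opposite directions (Pearson r = -0.853, and -0.735 with group means removed). IGFBP4 and IGFBP6 varied together (0.841 and 0.725). These correlations are descriptions over mice that share the length trend. By r over the 30 mice, out of 9049 genes, the genes most like IGF2R were LIG3 (0.980), IL6ST (0.973) and HDLBP (0.972). Those most like IGFBP6 were COX7A1 (0.936), SDHB (0.928) and PRXL2B (0.922). For IGFBP4 they were ARPC1B (0.899), S100A10 (0.883) and ATPIF1 (0.883), and for IGFBP7 UQCRFS1 (0.866), ECI1 (0.843) and FDX1 (0.838). IGFBP5 was most like SRPR (0.854), ANTXR1 (0.839) and EPB41L2 (0.837). IGF1 was most like ADAMTS5 (0.767), LAMB1 (0.757) and MEST (0.693), IGF2 like RBMS2 (0.71), EPAS1 (0.669) and RAI1 (0.656). IGF1R was most like MAFG (0.842), USP36 (0.824) and SORBS3 (0.818), and IGFBP3 like KLF13 (0.792), MAP3K10 (0.764) and IMPDH2 (0.762).

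The other genes of the pathway were read from lists. In a list meant to hold other IGFBP-related proteins and carriers, 2 of 5 tested genes rose and 2 fell between EAE and Ctrl mice on day 14. Among all genes 14.6% were called higher and 11.8% lower there. CCN1, a secreted matrix protein with an IGFBP domain, was 104 ± 43.1 RPKM in EAE and 28.3 ± 3.09 in Ctrl mice (log2 fold change 1.79, limma adjusted p = 1.14e-05). IGFN1, a muscle protein with immunoglobulin and fibronectin domains, was 23.5 ± 7.64 and 5.29 ± 1.32 RPKM (2.11, adjusted p = 3.01e-05). IGFN1 was counted among the 2 that rose but is not an IGFBP-related protein. HTRA1, a secreted serine protease with an IGFBP domain, fell (-0.82, adjusted p = 6.06e-05). IGFBP1 had no read in any mouse of day 14 in these groups, and IGFBP2 was 0.476 ± 0.334 RPKM in EAE and 0.351 ± 0.18 in Ctrl mice, under the filter. Of the proteases that cleave binding proteins and their inhibitors, 4 were tested, of which ADAMTS1 rose (0.97, adjusted p = 0.00956) and HTRA3 (-0.86, adjusted p = 0.000388) and HTRA1 fell. After the length correction 2 rose and 2 fell. PAPPA, the protease that cleaves IGFBP4, was at 0.086 ± 0.0248 RPKM in EAE mice, and its inhibitor STC2 at 2.60 ± 0.925 RPKM, and neither was tested against Ctrl.

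In the growth hormone axis, 1 of 10 tested genes rose and 2 fell, a share near the 26.4% of all genes called in this comparison. GHR, the growth hormone receptor, was 28.4 ± 2.41 RPKM in EAE and 26.0 ± 6.49 in Ctrl mice (log2 fold change 0.16, limma adjusted p = 0.416). STAT5A, a transcription factor downstream of it, rose (0.90, adjusted p = 0.000367). SOCS2, a growth hormone target that feeds back on the receptor, fell (-0.65, adjusted p = 0.0478), as did SOCS1, a feedback inhibitor of cytokine signalling (-1.73, adjusted p = 7.69e-05).

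Among 10 tested receptor and adaptor genes of insulin and IGF signalling, 2 rose and 1 fell, again near the 26.4% of all genes. IRS2, an adaptor of both receptors, was 10.9 ± 9.34 RPKM in EAE and 3.27 ± 2.11 in Ctrl mice (log2 fold change 1.63, limma adjusted p = 0.00864), with a wide spread among EAE mice. GRB14, an adaptor that restrains the insulin receptor, was 10.1 ± 2.18 and 22.6 ± 2.18 RPKM (-1.18, adjusted p = 7.5e-06). INSR, the insulin receptor, was 10.7 ± 1.74 and 7.19 ± 1.47 RPKM (0.59, adjusted p = 0.0318), and 0.26 after the length correction (adjusted p = 0.0402), under 1.5-fold. IRS1 (-0.16, adjusted p = 0.589) and GRB10 (-0.01, adjusted p = 0.932) were not called.

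Of 22 tested PI3K, AKT and mTOR genes, 10 rose and none fell between EAE and Ctrl mice, with a median log2 fold change of 0.56 against 0.11 for all genes. Among all genes 14.6% were called higher and 11.8% lower in this comparison. After the length correction 9 rose, and without the 4 mice of lowest trend 10 did. DEPTOR (1.73, limma adjusted p = 0.00198) and DDIT4 (1.67, adjusted p = 0.00191), both inhibitors of mTOR, and MTOR itself (1.48, adjusted p = 0.000253) led the list. Against OVA mice 7 of 22 rose (5 without the 4 mice of lowest trend), where 11% of all genes were called higher. Of 14 FOXO factors and their muscle targets, 8 rose and 1 fell against Ctrl mice, and 4 rose and none fell against OVA mice. CDKN1A, which encodes the cell cycle inhibitor p21, was 198 ± 80.2 RPKM in EAE and 24.4 ± 6.04 in Ctrl mice (2.94, adjusted p = 4.38e-06). FBXO32, the atrophy ubiquitin ligase atrogin-1, was 137 ± 78.5 and 40.3 ± 10.3 RPKM (1.58, adjusted p = 0.00123). FOXO3 (1.62, adjusted p = 0.024) and FOXO1 (0.87, adjusted p = 0.00331) rose, the latter at 0.57 (adjusted p = 0.0589) after the length correction, which is not a call. After that correction 7 of the list rose and 1 fell against Ctrl mice, and 4 rose and 1 fell against OVA mice. Among 7 tested imprinted growth genes IGF2R, itself a member, alone was called against Ctrl mice, near the 14.6% of all genes called higher. Against OVA mice 2 were called higher, where 11% of all genes were. The IGF2 mRNA binding proteins were all under the filter. On day 40 none of the pathway lists had a call against Ctrl except 1 of 13 FOXO genes, which was lower. Among all genes 0.46% were called there.

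Markers of cell types were read in the same comparison, in which 14.6% of all genes were called higher and 11.8% lower. Of 12 fibroblast and fibro-adipogenic progenitor markers, 11 were lower in EAE than in Ctrl mice on day 14 and none was higher. Their summed RPKM ranged from 841 to 1240 in EAE, 1480 to 2040 in OVA and 2160 to 3080 in Ctrl mice, and none of these markers was at 0. On day 40 the 3 ranges overlapped, from 1550 to 2070. COL1A1 was 30.3 ± 11.5 RPKM in EAE and 432 ± 197 in Ctrl mice of day 14, and PI16 was 15.4 ± 5.13 and 73.1 ± 15.2. In OVA mice of day 14 their means were 186 and 46.1 RPKM, and in Ctrl mice of day 40 172 and 37.7. Against OVA mice of day 14, 9 of 12 fibroblast and 7 of 11 macrophage markers were called lower and none higher. Among all genes 9.28% were called lower there. Against Ctrl mice, tendon markers were lower for 8 of 9 and higher for 1, and macrophage markers lower for 6 of 11. Endothelial markers were lower for 4 of 12 (1 after the length correction), and adipocyte markers higher for 1 and lower for 2 of 7. Neutrophil markers were higher for 5 of 5, with sums of 5.09 to 11.8 RPKM in Ctrl, 70.6 to 240 in OVA and 219 to 405 in EAE mice. S100A8 made up most of the sum in EAE mice, with a mean of 225 RPKM against 46.5 in OVA mice, while S100A9 was 36.1 in EAE and 71.9 in OVA mice. Against OVA mice 1 of 5 was higher, where 11% of all genes were, 3 of 5 had estimates below 0 and the median log2 fold change was -0.86. Against Ctrl, 1 of 8 pericyte and smooth muscle markers, a share near that of all genes, was also called higher (none after the length correction). So were 3 of 4 tested satellite cell markers, namely SDC4, DES and CDH15. The satellite cell list held 8 markers, of which PAX7, MYF5, CALCR and CHRDL2 were under the filter. VCAM1 was 2.5 RPKM in EAE and 3.27 in Ctrl mice. DES, at 3310 RPKM in EAE and 2010 in Ctrl mice, made up most of the summed RPKM of that list. All 10 markers of denervated myofibres were higher, among them MYOG, a muscle transcription factor (log2 fold change 4.1, limma adjusted p = 1.28e-06). Of 12 myofibre markers 1 was lower, a share near that of all genes. The part of these cell types in the changes of IGFBP4, IGFBP6, IGFBP7 and IGF2R was not tested.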

How the data were processed

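RNA-seq of EDL muscle was read from 1 table of 30 mice. Reads had been aligned to mm10 with Subread and summarised over RefSeq transcripts with featureCounts, and the deposited values, which the authors describe as RPKM, were read as log2(RPKM + 1), with 0.0001 for a gene without a read. On this reading RPKM times exon length (in kb) summed to between 106.6% and 108.5% of the total that RPKM sets for a library. Values were converted back to RPKM. A test fitted limma 3.58.1 (R 4.3.3) to log2(RPKM + 0.1) with a mean-variance trend, on genes above 3 RPKM in at least 1 compared group, using the 15 mice of a day, or all 30 mice for contrasts between days. Two-sided p-values were adjusted over all genes tested by the Benjamini-Hochberg method, and a call also needed a fold above 1.5. The test was checked on simulated data of independent genes, for EAE and OVA mice against Ctrl mice on day 14 only. The simulation held no length trend, so the check covers neither that trend nor the contrasts between days. Fold changes of low genes are understated by the added 0.1.

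The exon length correction removed from each mouse a loess fit of its log2 deviation from the mean of the mice in the fit on log2 exon length, and the length trend printed is the linear slope over 8977 genes. The fit without the 4 mice of lowest trend was chosen after seeing the data. Other alternatives were 2 pseudocounts, 2 filters, 2 scalings, other sets of mice, no mean-variance trend, no fold threshold, a replicate block and leaving out each mouse. Named genes were all members, the 3 called genes of each list with the largest change in EAE vs. Ctrl on day 14, a set of pathway genes named whatever their value, and the 3 genes most correlated with each member. Of 13 imprinted genes listed, 2 were not analysed here. Members, lists and tests were chosen with earlier results of these data known.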

Additional observations from a re-analysis of the deposited data

Results flagged for a closer look

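IGFBP3 in Ctrl mouse 3 of day 40, at 7.14 RPKM, was below the other 4 mice of its group, of which the nearest had 8.63 RPKM. Its gap passed Dixon's threshold of 0.71 on the log2 scale (0.732) but not in RPKM (0.707). It was the only such mouse among 54 groups of 5 examined, where chance flags about 1 in 20 groups.

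The EAE difference changed between day 14 and day 40 by the limma interaction test for 5 genes against Ctrl mice, with log2 values of -0.53 for IGF1R, -1.47 for IGF2R, 0.85 for IGFBP4, 1.87 for IGFBP6 and 0.56 for IGFBP7. Those of IGF1R and IGFBP7 were under 1.5-fold, and that of IGF1R was 0.06 after the length correction. Against OVA mice the same 5 genes were flagged, with -0.52 for IGF1R (under 1.5-fold), -1.23 for IGF2R, 0.71 for IGFBP4, 1.36 for IGFBP6 and 0.85 for IGFBP7. Both sets rest on the same EAE mice.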

How the results depend on the processing

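The number of members called kept within 1.5 times of its value under most alternatives. Without the fold threshold it was 7 (EAE vs. Ctrl, day 14), 4 (day 40 vs. day 14, EAE), 3 (day 40 vs. day 14, Ctrl) and 5 (day dependence of EAE vs. Ctrl). For day 40 vs. day 14 in Ctrl it was 2 with median-of-ratios scaling, and in OVA it was 0 with the length correction, with the block and the length correction, and without the 4 mice of lowest trend. Leaving out 1 mouse gave 2 to 4 for EAE vs. OVA on day 14, 3 to 4 for EAE vs. Ctrl on day 14, and 1 to 2 for day 40 vs. day 14 in Ctrl. Under the length correction, with and without the block, the sign turned for IGF2 (-0.07) and IGF1R (-0.09) in EAE vs. Ctrl on day 14, for IGF1R in Ctrl between days (-0.18) and for IGF1R in the day dependence of EAE vs. Ctrl (0.06). The cause was not tested. Of the refits of single values, 1179 kept direction and side of the threshold, 42 gained a call and 17 lost it. Those that gained a call include the setting without the fold threshold, where the value was the same and only the rule differed.

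Whether replicate numbers pair the mice is not stated by the labels, and the correlations do not settle it. Samples with the same number correlated above 0.1 in 1, 3 and 3 of 5 pairs in the comparisons of day 14 and in 0, 0 and 1 on day 40. With the replicate block 3 members were called in EAE vs. Ctrl and 4 in EAE vs. OVA on day 14, as without it, and the block alone changed no call of a member in the refits made. The median over all genes of the day dependence of EAE vs. Ctrl was -0.15, and -0.03 with median-of-ratios scaling.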
